A study of Mus musculus with 19 samples.

Results

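The comparison described here sets sorted stromal cells against sorted luminal cells of the wild type mouse anterior prostate, in 3 stromal and 3 luminal libraries of the 19 in the series. The 6 libraries were chosen by their sample descriptions, which name the genotype and the sorted population, and every gene that reached 1 FPKM (fragments scaled to transcript length and to the mapped fragments of the library) in at least 3 of the 6 was tested, 11178 of 24343 gene symbols. The wild type animals were the controls of a study in which Lgr5-DTR-eGFP mice, whose Lgr5-expressing cells carry the receptor for diphtheria toxin, were given that toxin. C57BL/6 mice had been purchased for the study, and whether the wild type controls also received toxin, their age, and whether each library had its own animals, are not given in the sources used here. The toxin-treated Lgr5-DTR-eGFP animals gave 4 stromal, 3 luminal and 3 basal libraries, and the wild type gave 3 basal libraries. These serve below only as a repeat of the comparison and as a second epithelial sort. The p-values thus cover only how much these libraries vary, and that variation may be technical.

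The prostate is a gland of secretory ducts. Luminal cells line the lumen, hold together through tight junctions and desmosomes and release the proteins, citrate and zinc of prostatic fluid, while the stroma around the ducts holds fibroblasts, smooth muscle, vessels and nerves and supplies growth factors to the epithelium. Androgen acts on both compartments.

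The libraries held 6.63 to 8.12 gigabases aligned to annotated transcripts, and 10037 to 10604 genes reached 1 FPKM in each. Pearson's r between the log2 values of replicates ran from 0.9475 to 0.9778 across genes. Adjusted p-values are from limma with Benjamini-Hochberg adjustment over the 11178 tested genes, and every log2 difference is stromal minus luminal on the log2(FPKM + 1) scale. At low FPKM the added 1 makes this difference smaller than the true ratio. A gene that differed by a value, or has 1 value alone in parentheses, is given with this log2 difference. In that fit 3105 genes were higher in stroma (27.8%) and 4292 were lower (38.4%), with a median difference of -0.25. TMM scaling moved that median to -0.04 and the counts to 3542 higher and 3630 lower, so small differences depend on the scaling. The counts of gene lists below are to be read beside the 27.8% higher and 38.4% lower. At a difference of at least 2 on the log2 scale (4-fold) 1161 genes were higher (10.4%) and 1036 were lower (9.27%). As a check on the sort, 4 of the 8 tested antigens used in prostate sorting protocols were higher in stroma and 4 were lower: Ly6a, the gene for Sca-1, stood at 1113, 1268 and 1109 FPKM in the stromal and 50.3, 9.51 and 9.06 FPKM in the luminal libraries, and Epcam at 13, 4.28 and 5.22 FPKM in the stromal and 648, 351 and 358 FPKM in the luminal libraries. Neither gene's groups overlapped (log2 differences 6.05 and -5.82). Which antibodies were used for this sort is not given in the sources used here. For bulk samples, fewer cells of a type and less RNA per cell cannot be told apart.

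Probasin and the renins were among the genes with the largest luminal excess, and the opioid precursor gene Penk had the largest stromal excess. Groups did not overlap for 7881 of the tested genes (70.5%), with stroma above in 29.3% and below in 41.3%. Among such genes that were also called and averaged 5 FPKM or more in 1 sort, the 15 largest luminal excesses included probasin (Pbsn), the renins, the secretory chaperone gene Agr2, the growth factor gene Egf, the protease gene Mmp7 and Azgp1, and also Tcaf3, Ms4a5 and Gsdma. The 15 largest stromal excesses included Penk, the calcification inhibitor gene Mgp, the Wnt inhibitor gene Wif1, the matrix genes Efemp1, Dpt, Mfap4, Dcn and Bgn, and the IGF-binding protein gene Igfbp6, and also Pltp, Inmt, Ifi27l2a and Ly6c1. Penk stood at 2743, 3947 and 1846 FPKM in the stromal and 11.6, 3.65 and 2.12 FPKM in the luminal libraries. All 3 stromal libraries lay far above the luminal ones (log2 difference 8.90, SE 0.52, adjusted p = 3.0e-06).

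**Figure D1:**
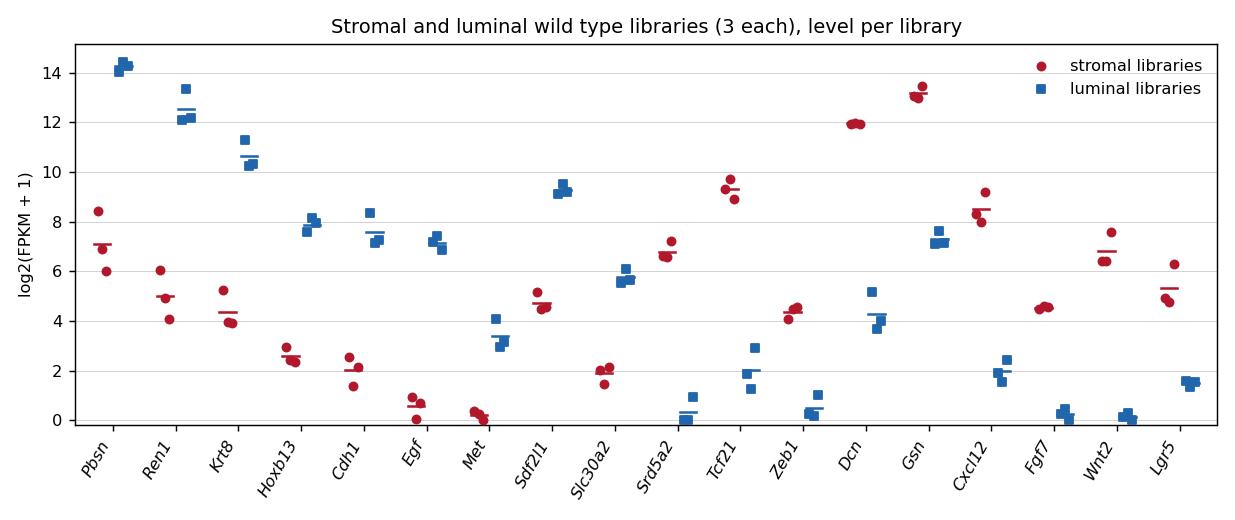
Levels of 18 genes as log2(FPKM + 1) in the 3 stromal (red circles) and 3 luminal (blue squares) wild type libraries, with 1 point per library and a short line at each group's mean on that scale. On the FPKM scale, probasin (Pbsn) lies between 62.6 and 347 FPKM in the stromal and between 16876 and 22090 FPKM in the luminal libraries, and Dcn lies between 3920 and 4025 FPKM in the stromal and between 11.9 and 34.6 FPKM in the luminal libraries.

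Prostatic secretory proteins were higher in luminal cells in most cases. In this list 26 of 54 genes were tested, with 4 higher and 18 lower in stroma and a median log2 difference of -3.05. Pbsn, which encodes probasin, an androgen-dependent lipocalin of mouse prostatic fluid, stood at 347, 118 and 62.6 FPKM in the stromal and 16876, 22090 and 19870 FPKM in the luminal libraries. Of genes not capped by the authors' software, it had the highest mean level in the luminal libraries, and the groups did not overlap (log2 difference -7.14, SE 0.59, adjusted p = 6.0e-05). Ren1, a gene for renin, stood at 64.9, 29.3 and 15.8 FPKM in the stromal and 4336, 10279 and 4616 FPKM in the luminal libraries (log2 difference -7.52, SE 0.54, adjusted p = 1.6e-05), and Ren2, a near-identical copy whose reads cannot be told apart from it with certainty, at 8.47, 0 and 0 FPKM in the stromal and 516, 1068 and 495 FPKM in the luminal libraries. Both renin entries were thus high in every luminal library, and Ren2 was listed at 0 in stromal replicates 2 and 3. Azgp1, which encodes a zinc-binding glycoprotein, stood at 6.005, 2.52 and 1.68 FPKM in the stromal and 339.7, 397 and 256 FPKM in the luminal libraries, and Msmb, the gene for beta-microseminoprotein, at 2.96, 0.345 and 0.601 FPKM in the stromal and 144, 86.4 and 84.6 FPKM in the luminal libraries. For both genes each luminal library was above each stromal one (log2 differences -6.34 and -5.65). Pigr, the receptor that carries antibodies across epithelia, was lower in stroma by a log2 difference of -6.01. Mmp7, the gene for matrilysin, differed by -6.38, and its exons overlap those of another annotated gene, so its level is uncertain. The 4 members of this list that were higher in stroma were Mfge8, Timp1, Crabp1 and Cst3. Mfge8, which encodes a protein that marks dying cells for uptake, stood at 974, 1005 and 1281 FPKM in the stromal and 17.7, 21.9 and 11.7 FPKM in the luminal libraries (log2 difference 5.94, SE 0.23, adjusted p = 7.1e-09). The call of Cst3 (log2 difference 0.44) was lost without any 1 of 5 of the 6 libraries. Clu, the gene for the chaperone clusterin, stood at 53, 12.8 and 72.4 FPKM in the stromal and 430.2, 104 and 128 FPKM in the luminal libraries and was not called (log2 difference -2.25, SE 0.83, adjusted p = 0.056), with luminal replicate 1 well above the other 2. Tgm4, the prostate transglutaminase gene, was capped by the authors' software in all 3 luminal libraries and was left out of the fit, as was 9530053A07Rik.

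Luminal identity genes followed the same side with 3 exceptions. In the list 17 of 17 genes were tested, with 3 higher and 14 lower in stroma and a median log2 difference of -4.83. The keratin genes Krt8, Krt18 and Krt19 of simple epithelia differed by -6.24, -6.23 and -5.80. Krt8 stood at 36.6, 14.7 and 14.2 FPKM in the stromal and 2518, 1209.8 and 1281 FPKM in the luminal libraries. The stromal values were not 0 but lay far below every luminal value. Agr2, whose product folds mucins and other secreted proteins, stood at 36.6, 7.38 and 4.58 FPKM in the stromal and 1425, 1945 and 1416 FPKM in the luminal libraries (log2 difference -7.03, SE 0.72, adjusted p = 2.8e-04). Cd9 and Tspan8, which encode tetraspanins of the cell membrane, were among the listed genes higher in stroma (1.81 and 1.03), and Tspan8 lost its call under 7 of the alternatives tried.

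Most epithelial junction genes were higher in luminal cells. In this list 35 of 38 genes were tested, with 1 higher and 32 lower in stroma and a median log2 difference of -3.74. Cdh1, the gene for E-cadherin, stood at 4.77, 1.62 and 3.39 FPKM in the stromal and 320.1, 141 and 151 FPKM in the luminal libraries (log2 difference -5.56, SE 0.36, adjusted p = 4.0e-07). Cldn7, a claudin of tight junctions, stood at 12.2, 1.4 and 4.38 FPKM in the stromal and 381, 264 and 257 FPKM in the luminal libraries (log2 difference -5.74, SE 0.56, adjusted p = 6.1e-05). The claudin genes Cldn3, Cldn4 and Cldn8 differed by -5.46, -5.29 and -5.88, the tight junction gene Ocln by -4.97 and the desmosome genes Dsp and Dsc2 by -3.00 and -4.03. The membrane serine protease gene St14 and the genes of its inhibitors, Spint1 and Spint2, differed by -5.43, -5.70 and -6.04. Spint2 stood at 26.1, 5.82 and 9.65 FPKM in the stromal and 892, 896 and 702 FPKM in the luminal libraries. In each of these genes every luminal library was above every stromal one. Cldn10 was the only listed junction gene higher in stroma (log2 difference 1.52, SE 0.29, adjusted p = 8.0e-04), and Ppl and Cldn12 were not called (log2 differences 0.13 and -0.10). In wild type basal cells the junction list was split, with 17 of 36 tested genes higher in luminal than in basal cells and 15 lower (40.5% and 28.2% of all 10460 genes tested there), so luminal cells did not stand above basal cells across the list.

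The regulators of epithelial fate moved with the junctions. In their list 29 of 32 genes were tested, with 3 higher and 20 lower in stroma and a median log2 difference of -2.39. The ETS factor gene Ehf stood at 2.21, 0.575 and 1.01 FPKM in the stromal and 80.2, 132 and 117 FPKM in the luminal libraries (log2 difference -5.64, SE 0.29, adjusted p = 4.2e-08). The prostate homeobox gene Hoxb13 stood at 6.69, 4.42 and 4.05 FPKM in the stromal and 188, 280.2 and 242 FPKM in the luminal libraries (log2 difference -5.30, SE 0.23, adjusted p = 1.3e-08). All stromal libraries lay below all luminal ones for both genes. The pioneer factor gene Foxa1 differed by -4.98, Gata3 by -4.25 and the grainyhead factor gene Grhl2 by -2.82. Bhlha15 encodes MIST1, a factor of secretory cells, and stood at 1.3, 0.145 and 0.392 FPKM in the stromal and 33.5, 55 and 44.6 FPKM in the luminal libraries (log2 difference -4.85, SE 0.30, adjusted p = 1.3e-07). The listed factor genes Creb3l1, Tfap2c and Elf1 were higher in stroma. Creb3l1, whose product drives collagen and secretory pathway genes, stood at 39.9, 42.8 and 48.6 FPKM in the stromal and 3.52, 5.26 and 3.76 FPKM in the luminal libraries (log2 difference 3.12, SE 0.21, adjusted p = 3.1e-07). Xbp1, a factor of the unfolded protein response, stood at 173, 258 and 184 FPKM in the stromal and 218, 185 and 173 FPKM in the luminal libraries and did not pass the test (log2 difference 0.08, SE 0.20, adjusted p = 0.73).

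On the stromal side, 34 of the 40 tested genes in a list of 54 mesenchymal regulators were higher and 2 were lower, with a median log2 difference of 2.18. Tcf21, a factor of fibroblast lineages, stood at 631, 850.4 and 485 FPKM in the stromal and 2.61, 1.4 and 6.43 FPKM in the luminal libraries (log2 difference 7.32, SE 0.38, adjusted p = 1.7e-07). The odd-skipped factor gene Osr2, the homeobox gene Prrx2 and Twist2 differed by 5.83, 5.74 and 4.92. Zeb1 and Snai1 encode repressors that bind E-box sequences in the promoters of epithelial genes. Zeb1 stood at 15.7, 21.6 and 22.6 FPKM in the stromal and 0.196, 0.133 and 1.01 FPKM in the luminal libraries (log2 difference 3.89, SE 0.28, adjusted p = 4.0e-07), and Snai1 at 14, 10.3 and 13 FPKM in the stromal and 0.222, 0.134 and 0.58 FPKM in the luminal libraries (log2 difference 3.36, SE 0.24, adjusted p = 3.6e-07). Both were low in every luminal library. Zeb2 was also higher in stroma (log2 difference 1.22), and Snai2 was not called (0.73), though it was under TMM scaling. Among homeobox genes Hoxd13 was higher (2.98) and Hoxa9 lower (-1.16) in stroma.

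The E-box letters that Snail and Zeb proteins are known to bind, CAGGTG or its reverse complement CACCTG, were looked for in RefSeq promoter windows of 300 bases (250 before to 50 after the start, build GRCm38.p6). The windows shown are those of the 2 junction and the 2 regulator genes with the largest luminal excess that had an entry, and the capitals mark the E-box letters in the 150 bases before the start, read 5′ to 3′ on the gene's own strand. Spint2 lies on the minus strand (chr7:29281978-29282127), Epcam on the plus strand (chr17:87635829-87635978), Foxa1 on the minus strand (chr12:57546112-57546261) and Bhlha15 on the plus strand (chr5:144190136-144190285).
Spint2: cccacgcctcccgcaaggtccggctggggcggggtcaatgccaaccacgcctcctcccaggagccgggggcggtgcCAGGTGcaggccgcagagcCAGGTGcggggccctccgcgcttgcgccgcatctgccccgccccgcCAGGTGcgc
Epcam: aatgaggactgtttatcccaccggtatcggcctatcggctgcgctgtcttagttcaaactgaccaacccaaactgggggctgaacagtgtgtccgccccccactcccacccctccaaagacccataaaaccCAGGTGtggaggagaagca
Foxa1: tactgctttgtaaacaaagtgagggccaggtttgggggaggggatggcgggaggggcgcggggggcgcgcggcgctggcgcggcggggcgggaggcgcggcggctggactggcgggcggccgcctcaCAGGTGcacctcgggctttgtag
Bhlha15: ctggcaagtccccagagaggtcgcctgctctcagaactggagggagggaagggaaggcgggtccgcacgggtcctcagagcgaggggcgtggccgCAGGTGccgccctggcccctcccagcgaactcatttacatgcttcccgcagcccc
The E-box letters occurred 3 times in the stretch shown of Spint2 and 1 time in each of the others. Over all 32851 windows of 27025 genes, 20.2% held the E-box letters, and 17.6% of the windows of tested genes did. Windows of genes at least 4-fold lower in stroma held them in 31.3%, and those of genes at least 4-fold higher in 16%. Of the junction genes 21 of 38 had an entry, and 19 of their 31 windows held the letters (61.3%). Of the regulators 18 of 32 had an entry, with 10 of 29 windows (34.5%). A grainyhead motif and the CArG box were also searched, on both strands. The grainyhead motif AACCGG was in 11.2% of the windows of genes at least 4-fold lower in stroma, 7.5% of those at least 4-fold higher and 11% of the windows of tested genes, and the CArG box in 1 of 14 smooth muscle windows (1.34% of the windows of tested genes). Several windows can belong to 1 gene, the base composition of the windows was not matched, and a match describes letters, not binding.

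The 2 sorts also differed in which transcript of a gene they carried. This was looked at after the gene levels had been seen. Of 1526 genes with more than 1 RefSeq transcript and a mean of at least 5 FPKM in both sorts, 1202 had 1 leading transcript in all libraries of each sort, and for 71 of these (5.91%) the leading transcript differed between stroma and lumen. Of the genes described next, Numb and Tpm1 are among these 71, Pkm and Slk are not, and Fgfr2 was below 5 FPKM in luminal cells and so outside the set. Cd44, Ctnnd1, Fgfr1 and Fgfr3 were looked up too. Cd44 and Ctnnd1 are not among the 71, and Fgfr1 and Fgfr3 were outside the set. The leading Cd44 transcript, NM_001039151, held 100% in each stromal library and 61.8, 79.7 and 100% in the luminal ones. Shares of every Cd44 and Fgfr3 transcript overlapped between the sorts, while some shares of Ctnnd1 and Fgfr1 did not. The form names IIIb, IIIc and M1 are given to RefSeq transcripts from background knowledge and were not checked against their sequence. Fgfr2 encodes a receptor whose IIIb form, made in epithelia, binds FGF7 and FGF10, and whose IIIc form is made in mesenchyme. The IIIc transcript, NM_010207, made up 79.8, 80.2 and 80.00% of Fgfr2 FPKM in the stromal libraries and 32.7, 36.6 and 26.8% in the luminal ones, and the IIIb transcript, NM_201601, made up the remainder in each. The mean IIIc share was thus 80.00% ± 0.224 (SD, n = 3) in stroma and 32% ± 4.91 (SD, n = 3) in luminal cells, with 28.3% ± 1.65 (SD, n = 3) in basal cells. The stromal and luminal shares did not overlap, but an exact two-sided permutation test of 3 against 3 cannot go below p = 0.1, the value reached here and for each share named below. Fgfr2 as a gene stood at 5.34, 3.89 and 9.53 FPKM in the stromal and 3.005, 1.85 and 2.68 FPKM in the luminal libraries (log2 difference 0.99, SE 0.30, adjusted p = 0.012), a call that was lost without luminal replicate 2. The IIIb transcript stood at 2.02, 1.17 and 1.96 FPKM in the luminal and 32.9, 46.7 and 56.7 FPKM in the wild type basal libraries. The part of basal RNA in the luminal shares was not tested. In the toxin-treated animals the IIIc share ran from 47.5% to 78.5% in 4 stromal and from 23.4% to 42.2% in 3 luminal libraries.

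Pkm encodes pyruvate kinase, whose M1 form (NM_001253883) made up 19.2, 16.9 and 20.1% of its FPKM in stroma and was listed at 0 in each luminal library. Numb encodes a regulator of Notch signalling. Its transcript NM_001272055 made up 73.5, 62.6 and 60.3% of Numb FPKM in luminal cells and was listed at 0 in all stromal libraries, and NM_010949 made up 44.1, 32.4 and 41.8% in stroma and was listed at 0 in all luminal ones. The leading Numb transcript of every stromal library was NR_073563, at 55.9, 67.6 and 58.2%, and it held 26.5, 37.4 and 39.7% in the luminal ones. For these transcripts the sorts did not overlap. Tpm1 encodes a tropomyosin of the actin cytoskeleton, and here NM_024427 held 57.7, 65.6 and 58.7% in stroma while NM_001164253 held 55.8, 72.8 and 69.6% in luminal cells, each listed at 0 in the other sort. Slk, a kinase gene, had NM_001164639 at 83.3, 100 and 100% in stroma and 13.8, 12.1 and 56.6% in luminal cells, where luminal replicate 3 lay apart from the other 2. The splicing regulator genes Esrp1 and Esrp2, whose products are known to favour the epithelial forms of Fgfr2 and other transcripts, were low in stroma: Esrp1 stood at 0.289, 0.103 and 0.13 FPKM in the stromal and 8.79, 9.62 and 5.84 FPKM in the luminal libraries (log2 difference -2.93, SE 0.24, adjusted p = 1.2e-06), and Esrp2 at 0.341, 0.0609 and 0.213 FPKM in the stromal and 22.5, 12.3 and 9.4 FPKM in the luminal libraries (log2 difference -3.63, SE 0.30, adjusted p = 1.3e-06). Rbm47, another splicing regulator gene, differed by -3.23. The part of these regulators in the transcript shares was not tested.

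**Figure D2:**
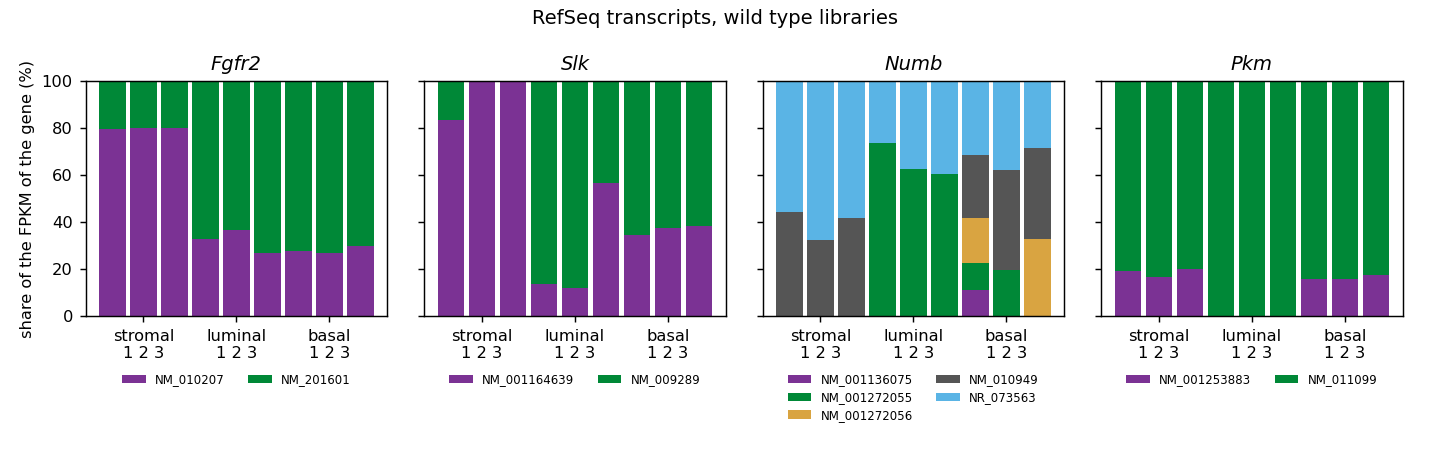
Share of each RefSeq transcript in the summed FPKM of Fgfr2, Slk, Numb and Pkm, in percent, with 1 stacked bar per wild type library (stromal, luminal and basal). The IIIc transcript of Fgfr2 fills 79.8% to 80.2% of the stromal bars and 26.8% to 36.6% of the luminal bars.

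Machinery for making secreted proteins was higher in luminal cells. In the list 70 of 75 genes were tested, with 4 higher and 58 lower in stroma and a median log2 difference of -1.42. Sdf2l1, a subunit of a chaperone complex of the endoplasmic reticulum, stood at 34.7, 21.3 and 22.6 FPKM in the stromal and 551, 739.6 and 578 FPKM in the luminal libraries (log2 difference -4.54, SE 0.22, adjusted p = 2.8e-08). Creld2 and Ssr4, a disulfide isomerase gene and a translocon subunit gene, differed by -3.55 and -3.34, and the cargo receptor gene Tmed3 by -3.48. Each luminal library exceeded each stromal one for these genes. The chaperone gene Hspa5 stood at 1913, 1388 and 1345 FPKM in the stromal and 3771, 2984 and 2866 FPKM in the luminal libraries (log2 difference -1.06, SE 0.19, adjusted p = 4.8e-04), a difference much smaller than that of Sdf2l1. Next to Creb3l1, the members higher in stroma were Ero1lb, Kdelr3 and Ero1l (log2 differences 0.90, 0.71 and 0.55), and each of the last 3 lost its call when libraries with low-data status entries were given a term of their own.

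Citrate, zinc and polyamine genes, which serve products that the prostate secretes in bulk, were divided. In this list 34 of 41 genes were tested, with 11 higher and 17 lower in stroma and a median log2 difference of -0.67. The genes tested as a whole were divided too, with 27.8% higher and 38.4% lower. Slc30a2, a zinc exporter gene, stood at 3.11, 1.78 and 3.42 FPKM in the stromal and 45, 67.5 and 49 FPKM in the luminal libraries (log2 difference -3.87, SE 0.25, adjusted p = 2.0e-07). The zinc importer genes Slc39a8 and Slc39a4 were also higher in luminal cells (-3.09 and -3.05), as was Pcx, the gene for pyruvate carboxylase (-2.35). Their groups did not overlap. In stroma the importer genes Slc39a6 and Slc39a1 (2.33 and 1.70), the polyamine-degrading enzyme gene Sat1 (2.45) and the metallothionein genes Mt1 and Mt2 were higher. Mt2 stood at 5569, 7119.5 and 5297 FPKM in the stromal and 1079, 1228 and 1223 FPKM in the luminal libraries (log2 difference 2.34, SE 0.17, adjusted p = 4.5e-07). Mt3 went the other way (-1.52). The citrate cycle genes Cs and Idh2 were lower in stroma (-1.18 and -1.38). Beside them, 55 of 59 tested oxidative phosphorylation genes were lower in stroma and 1 was higher, with a median of -1.24. Of 50 cytosolic ribosomal protein genes 20 were lower and 0 higher, median -0.38, a lower share near the 38.4% of all tested genes. The ribosomal counts became 8 lower and 1 higher under TMM scaling, while 54 oxidative phosphorylation genes stayed lower.

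The listed fibroblast genes, chosen with earlier results of these data known, were higher in stroma without exception. All 26 listed markers were tested and 26 were higher, with a median log2 difference of 5.94, beside 27.8% higher among all tested genes. Ly6a and Thy1 on this list are also among the sorting antigens. Dcn, the gene for decorin, stood at 3920, 4025 and 3946 FPKM in the stromal and 34.6, 11.9 and 15 FPKM in the luminal libraries (log2 difference 7.67, SE 0.32, adjusted p = 2.2e-08). Gsn, the gene for the actin-severing protein gelsolin, stood at 8626, 7988 and 11228 FPKM in the stromal and 137, 194 and 141 FPKM in the luminal libraries (log2 difference 5.88, SE 0.20, adjusted p = 3.7e-09) and had the second highest mean of all genes in stroma, after Mt1. The receptor gene Pdgfra stood at 41.8, 44.3 and 60.5 FPKM in the stromal and 0.184, 0.0558 and 0.00508 FPKM in the luminal libraries (log2 difference 5.51, SE 0.23, adjusted p = 9.8e-09). For all of these each stromal library lay above each luminal one. Serpinf1, Dpt, Clec3b and Lum differed by 8.04, 7.82, 7.68 and 7.11, and the fibroblast genes Pi16 and Cd34 by 7.03 and 7.02.

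Matrix genes were higher in stroma across their classes. Of 40 collagen and elastic fibre genes 39 were tested, with 38 higher, 0 lower and a median of 4.08, and of 12 tested small leucine-rich proteoglycans 11 were higher. Col1a1 and Col1a2, the chains of type I collagen, differed by 5.62 and 6.01, elastin (Eln) by 6.46, and the microfibril genes Efemp1 and Mfap4 by 7.82 and 7.74. Tnc was the tested gene of the list that was not called (0.34), though TMM scaling gave a call. Postn, a matricellular gene, stood at 42.5, 32.8 and 41.6 FPKM in the stromal and 18.4, 18.5 and 23.1 FPKM in the luminal libraries (log2 difference 0.93, SE 0.20, adjusted p = 0.0018). Basement membrane genes were split by subunit. In that list 23 of 28 genes were tested, with 18 higher and 4 lower in stroma and a median log2 difference of 2.99. The laminin genes Lamb1, Lama2 and Lamc3 and the nidogen gene Nid1 were higher in stroma (4.84, 4.67, 4.53 and 4.40), as were all 6 type IV collagen chains. The epithelial laminin gene Lama5 and the integrin genes Itga6 and Itgb4 of hemidesmosomes were lower (-2.33, -4.27 and -1.96). Matrix proteases and their partners leaned to stroma, with 25 of 28 tested genes higher. Mmp2 differed by 6.48 and the collagen-processing gene Pcolce by 7.36, and the 3 lower genes were Mmp7, Mmp15 and Timp4.

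**Figure D3:**
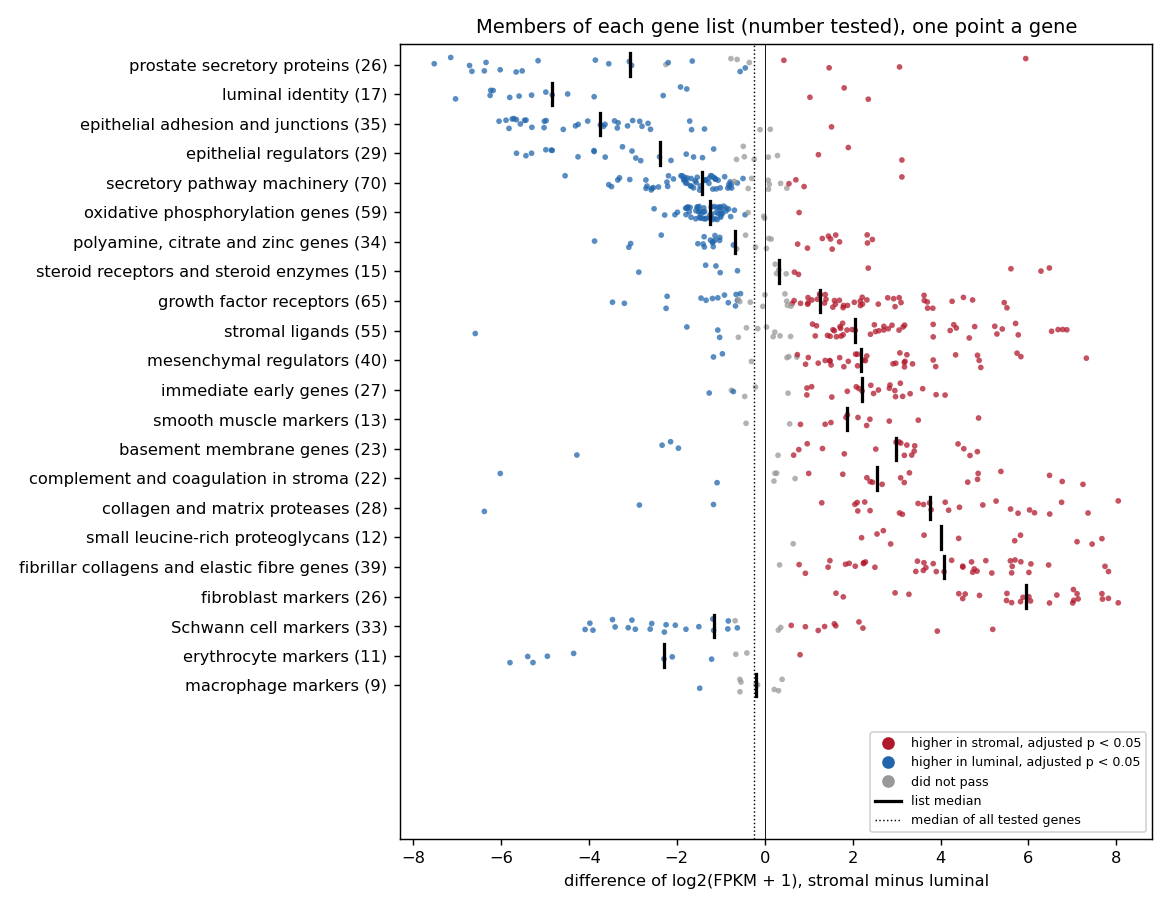
Log2 differences (stromal minus luminal) of the tested genes of each list, with 1 point per gene, red for genes called higher in stroma, blue for those called higher in luminal cells and grey for the others, the list's median as a black bar and the median of all 11178 tested genes (-0.25) as a dotted line. All 26 fibroblast markers lie above 0, and 32 of 35 tested junction genes were called below 0.

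A list of stromal ligands, named for that side and chosen with earlier results of these data known, was mostly higher in stroma. Of its 65 genes 55 were tested, with 43 higher and 4 lower in stroma and a median of 2.06. Among all tested genes 27.8% were higher and 38.4% lower. Cxcl12, a chemokine gene, stood at 313, 249.8 and 590.1 FPKM in the stromal and 2.72, 1.95 and 4.42 FPKM in the luminal libraries (log2 difference 6.53, SE 0.33, adjusted p = 5.1e-08). Wnt2 stood at 85, 84.2 and 192 FPKM in the stromal and 0.0985, 0.21 and 0 FPKM in the luminal libraries (log2 difference 6.67, SE 0.31, adjusted p = 2.1e-08), and the BMP family gene Gdf10 at 135, 136 and 224 FPKM in the stromal and 0.762, 0.283 and 0.399 FPKM in the luminal libraries (log2 difference 6.78, SE 0.25, adjusted p = 5.3e-09). The luminal libraries held little of any of the 3. Fgf7 and Fgf10, the ligands of the IIIb receptor described above, were stromal: Fgf7 stood at 21.3, 23.1 and 22.3 FPKM in the stromal and 0.181, 0.366 and 0.0133 FPKM in the luminal libraries (log2 difference 4.30, SE 0.22, adjusted p = 3.9e-08), and Fgf10 at 4.6, 3.85 and 4.49 FPKM in the stromal libraries and was listed at 0 in all 3 luminal libraries. The chemokine gene Ccl2 stood at 932, 1539 and 305 FPKM in the stromal and 3.7, 5.7 and 7.65 FPKM in the luminal libraries (log2 difference 6.87, SE 0.57, adjusted p = 3.1e-05), with a wide spread within stroma. The ligand genes that were higher in luminal cells were Egf, Btc, Pdgfa and Tgfa, of which 3 encode ligands of the EGF receptor. Egf stood at 0.893, 0.0456 and 0.624 FPKM in the stromal and 144, 169 and 114 FPKM in the luminal libraries (log2 difference -6.58, SE 0.27, adjusted p = 8.4e-09). Btc and Pdgfa each lost the call with a term for the low-data status libraries (log2 differences -1.77 and -1.07), and Tgfa under that and 5 other alternatives (-1.02).

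Receptor genes were found on both sides, more often on the stromal one. In the list 65 of 81 genes were tested, with 42 higher and 14 lower in stroma and a median log2 difference of 1.26, and TMM scaling gave 46 and 11. Among all tested genes 27.8% were higher and 38.4% lower in the main fit. Hgf, the ligand of Met, was higher in stroma (2.90), and Met stood at 0.286, 0.183 and 0 FPKM in the stromal and 16, 6.63 and 7.92 FPKM in the luminal libraries (log2 difference -3.19, SE 0.30, adjusted p = 3.9e-06). Erbb3, a receptor for neuregulins, stood at 0.109, 0 and 0.0241 FPKM in the stromal libraries and between 7.39 and 15.4 FPKM in the luminal ones (log2 difference -3.46, SE 0.27, adjusted p = 7.7e-07), and the gene of its ligand, Nrg1, was higher in stroma (1.79). Neither Met nor Erbb3 passed 0.286 FPKM in a stromal library. In stroma the FGF receptor gene Fgfr1 stood at 93, 123 and 64.2 FPKM in the stromal and 3.17, 2.34 and 1.93 FPKM in the luminal libraries (log2 difference 4.73, SE 0.26, adjusted p = 7.0e-08), and the chemokine receptor gene Ackr3, Pdgfra, Ddr2 and Axl were higher too (5.45, 5.51, 4.52 and 3.63). Egfr was higher in stroma (1.78), the side opposite to Egf. Lgr5, the R-spondin receptor gene at which the toxin receptor was placed in the other genotype, stood at 29.1, 25.8 and 77.6 FPKM in the stromal and 1.99, 1.54 and 1.92 FPKM in the luminal libraries (log2 difference 3.83, SE 0.36, adjusted p = 4.8e-06). Each stromal library was above each luminal one, and stromal replicate 3 was the highest.

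The steroid genes were divided between the sorts, as were the genes tested as a whole. In the list of steroid receptors and enzymes 15 of 23 genes were tested, with 6 higher and 5 lower in stroma and a median log2 difference of 0.32, beside 27.8% higher and 38.4% lower among all tested genes. Under TMM scaling 8 were higher and 4 lower. Srd5a2, whose enzyme turns testosterone into dihydrotestosterone, stood at 95.6, 94.1 and 146 FPKM in the stromal and 0, 0 and 0.919 FPKM in the luminal libraries (log2 difference 6.48, SE 0.30, adjusted p = 2.0e-08). Each stromal library was above each luminal one. Hsd11b1, whose enzyme activates glucocorticoids, stood at 66.8, 65.2 and 56.1 FPKM in the stromal and 0.531, 0 and 0.461 FPKM in the luminal libraries (log2 difference 5.60, SE 0.23, adjusted p = 1.1e-08), and Sult1e1, an oestrogen sulfotransferase gene, differed by 6.29. The oestrogen receptor gene Esr1 was lower in stroma, at 5.75, 5.36 and 6.57 FPKM in the stromal and 14, 14.7 and 10.3 FPKM in the luminal libraries (log2 difference -1.01, SE 0.22, adjusted p = 0.0018), and Fkbp4, a co-chaperone of steroid receptors, differed by -2.86.

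Transcripts of neighbouring cell types were measured in both sorts. In the smooth muscle list 13 of 18 genes were tested, with 11 higher and 0 lower in stroma and a median log2 difference of 1.88. Des, the gene for desmin, stood at 60.9, 63.5 and 91.9 FPKM in the stromal and 0.907, 2.7 and 1.12 FPKM in the luminal libraries (log2 difference 4.87, SE 0.29, adjusted p = 9.9e-08), and Acta2, the gene for smooth muscle actin, at 107, 73.8 and 67 FPKM in the stromal and 6.49, 24.7 and 21.9 FPKM in the luminal libraries (log2 difference 2.32, SE 0.44, adjusted p = 0.0014). Myh11, the contractile myosin gene that defines mature smooth muscle, stood at 6.57, 3.28 and 5.06 FPKM in the stromal and 2.1, 5.06 and 2.2 FPKM in the luminal libraries, overlapped between the sorts and was not called (log2 difference 0.57), though it was without luminal replicate 2 or stromal replicate 2. Tagln was listed at 0 in luminal replicate 1, and its call (log2 difference 3.49) was lost without any 1 of the 3 stromal libraries. The list summed to between 402 and 486 FPKM in stroma and between 72.5 and 114 in luminal cells. Pericyte genes were mixed, with 4 of 7 higher and Rgs5 lower in stroma (-2.20). The endothelial genes Pecam1, Cdh5 and Kdr did not exceed 1.66 FPKM in any of the 6 libraries, and the 20 listed endothelial genes summed to 23.5 to 30.6 FPKM in stroma and 17.1 to 23.4 FPKM in luminal cells. The leukocyte gene Ptprc did not exceed 0.140 FPKM, and the macrophage genes Adgre1 and Csf1r did not exceed 0.601 and 2.10 FPKM. The 21 macrophage genes summed to 23.4 to 43.9 FPKM in stroma and 36 to 43.8 FPKM in luminal cells, and 1 of the 9 tested was called, C1qb, lower in stroma, and its call was lost with the low-data status as a term.

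A list of complement and coagulation genes in stroma, named for that side and chosen with earlier results known, was mostly higher there. Of 22 tested genes 16 were higher and 2 lower (median 2.56), beside 27.8% and 38.4% of all tested genes. Serping1, the gene for the C1 inhibitor, stood at 1606, 1565 and 1605 FPKM in the stromal and 8.37, 10.9 and 9.45 FPKM in the luminal libraries (log2 difference 7.24, SE 0.17, adjusted p = 1.8e-09). C7 and C3 differed by 6.77 and 6.48. C1s1 and C1s2, near-identical copies of a C1 protease gene, went in opposite directions (4.62 and -6.01), and how reads were divided between such copies is uncertain. Immediate early genes, which dissociation and handling of tissue are known to induce, were higher in stroma in 21 of 27 cases and lower in 2 (median 2.22). Junb stood at 3537, 2097 and 5431 FPKM in the stromal and 222, 213 and 253 FPKM in the luminal libraries (log2 difference 3.90, SE 0.29, adjusted p = 9.5e-07), and Nr4a2 differed by 4.10. Of 16 heat shock genes 4 were higher and 0 lower (median 0.25), a higher share near the 27.8% of all tested genes. Hspa1a stood at 2556, 152 and 741 FPKM in the stromal and 234, 255 and 404 FPKM in the luminal libraries and was not called, with stromal replicate 2 below all luminal libraries. The part of handling in the other differences was not tested.

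The luminal sort carried glial transcripts. The list of 48 Schwann cell markers was split, with 10 of 33 tested genes higher and 20 lower in stroma (median -1.16). Sox10, the factor that defines the neural crest glial lineage, stood at 0, 0 and 0.0493 FPKM in the stromal and 5.24, 6.23 and 9.56 FPKM in the luminal libraries (log2 difference -2.94, SE 0.24, adjusted p = 1.2e-06). Every luminal library was far above every stromal one. The GDNF family receptor gene Gfra3 stood at 4.84, 4.19 and 5.88 FPKM in the luminal libraries and was listed at 0 in all 3 stromal libraries. Cdh19 differed by -3.10, Gfap by -2.28 and Fabp7 by -2.03. Against wild type basal cells, Sox10 and Cdh19 were higher in luminal cells too (log2 differences 2.94 and 3.16), and 20 of 32 tested markers were higher and 6 lower in that comparison. Mal, Gjb1 and Erbb3 are on the list but are also known from epithelia. On the stromal side of the same list stood Matn2, Pmp22 and Sostdc1, and Pmp22, which fibroblasts also express, stood at 289, 315 and 329 FPKM in the stromal and 15.1, 20.4 and 23.9 FPKM in the luminal libraries (log2 difference 3.93, SE 0.20, adjusted p = 4.2e-08). The whole list summed to between 875 and 1244 FPKM in stroma and between 224 and 327 in luminal cells, a sum led by Pmp22 and Matn2.

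Of neuronal and neuroendocrine genes 7 of 11 tested were higher in stroma, beside 27.8% of all tested genes. Npy, the gene for neuropeptide Y, stood at 143, 233 and 93.8 FPKM in the stromal and 0.559, 0 and 0 FPKM in the luminal libraries (log2 difference 6.99, SE 0.32, adjusted p = 2.1e-08), and Gal and Prph differed by 3.17 and 2.87. Chga, a granule gene of neuroendocrine cells, was the 1 lower, at 0, 0 and 0.0187 FPKM in the stromal and 8.36, 4.17 and 10.7 FPKM in the luminal libraries (log2 difference -3.04, SE 0.29, adjusted p = 4.2e-06).

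Blood transcripts were also on the luminal side, with 8 of 11 tested genes of a list of 28 erythrocyte markers lower in stroma and 1 higher. Among all tested genes 38.4% were lower and 27.8% higher. Hba-a1, an alpha globin gene, stood at 5.41, 33.3 and 0.314 FPKM in the stromal and 92.6, 529.5 and 427 FPKM in the luminal libraries (log2 difference -5.39, SE 1.41, adjusted p = 0.021). The groups did not overlap, but values spread widely within each, luminal replicate 1 lying lowest of the luminal libraries, and the call was lost without stromal replicate 1. Globin genes come in near-identical copies, so single copies are uncertain. Car2 stood at 6.55, 1.96 and 2.4 FPKM in the stromal and 276, 266 and 174 FPKM in the luminal libraries (log2 difference -5.79, SE 0.34, adjusted p = 1.6e-07) and is also an epithelial carbonic anhydrase gene. Alas2, a haem synthesis gene of red cells, differed by -2.29, and its exons overlap those of another gene. The red cell membrane gene Slc4a1 was at or below 0.0441 FPKM in all 6 libraries. The list summed to 75.6 to 133 FPKM in stroma and 587 to 1422 FPKM in luminal cells. The part of red cells or of free RNA in the luminal values was not tested.

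**Figure D4:**
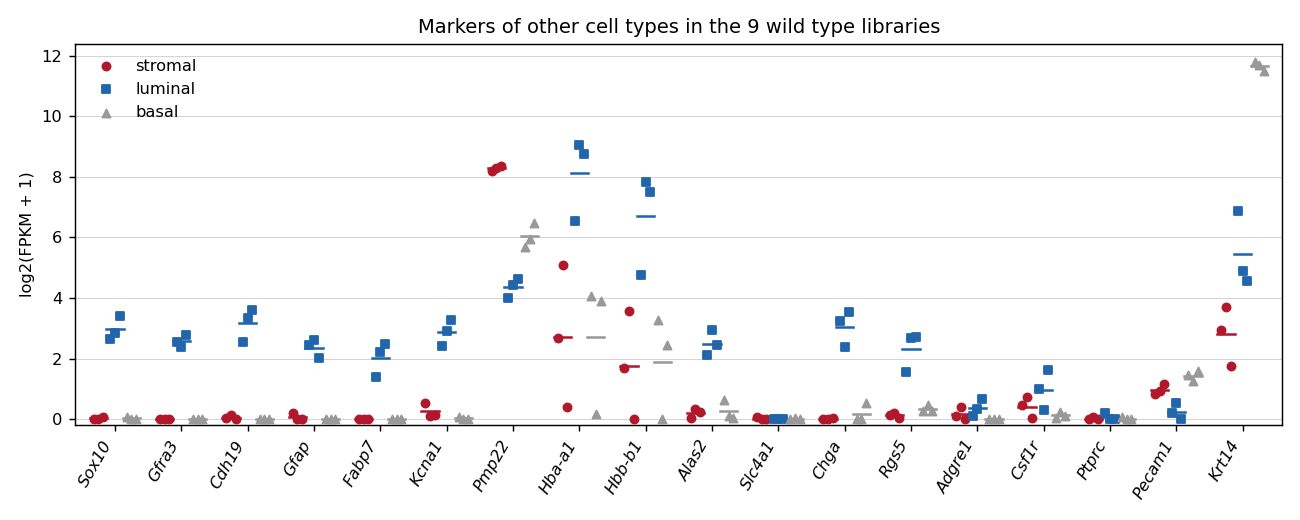
Levels of 18 marker genes of other cell types as log2(FPKM + 1) in the 3 stromal (red circles), 3 luminal (blue squares) and 3 basal (grey triangles) wild type libraries, with 1 point per library and a short line at each group's mean. Sox10 lies between 5.24 and 9.56 FPKM in the luminal libraries and at 0.0493 FPKM or less in the stromal ones, while Ptprc stays at or below 0.140 FPKM in the stromal and luminal libraries.

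Markers of other epithelia were present in the luminal libraries. Of 20 basal markers 12 were tested, with 0 higher and 10 lower in stroma, beside 27.8% and 38.4% of all tested genes. Krt14 stood at 6.75, 12 and 2.36 FPKM in the stromal and 116, 28.4 and 22.6 FPKM in the luminal libraries (log2 difference -2.64, SE 0.75, adjusted p = 0.019), with luminal replicate 1 well above the other luminal libraries, and its mean in wild type basal libraries was 3246 FPKM. Its call was lost without stromal replicate 3, that of Krt17 (log2 difference -2.95) without stromal replicate 1 or 3, and both with a term for the libraries with low-data status entries. The urothelial plaque genes Upk1a and Upk1b were higher in luminal cells in each library (-4.03 and -4.52), Upk1b standing at 5.24, 2.71 and 4.42 FPKM in the stromal and 109, 121 and 112 FPKM in the luminal libraries. In the stromal libraries, the genes at least 4-fold lower in stroma were highest in replicate 1 in 446 of the 995 with a value above 0 (44.8%), against 23.7% of all tested genes, and they summed to 8677, 7231 and 7327 FPKM in the 3 libraries. The part of luminal RNA in stromal replicate 1 was not tested. Without it 2839 genes were higher and 3831 lower.

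The toxin-treated Lgr5-DTR-eGFP libraries repeat the comparison without sharing a sample with it. There 2373 of 11399 tested genes were higher in stroma (20.8%) and 4826 lower (42.3%), and under TMM scaling 3065 and 3555. Of 10874 genes tested in both genotypes, 2988 were higher in wild type stroma, and 2134 of these were higher there too (71.4% of the wild type and 95.7% of the Lgr5-DTR-eGFP calls). For lower genes 3775 were called in both (90.5% of 4172 and 81.1% of the Lgr5-DTR-eGFP calls). At a wild type difference of at least 4-fold, 1088 of 1147 higher and 1013 of 1018 lower genes were called the same way. In opposite directions 32 higher genes and 0 lower genes were called. The junction list gave 1 higher and 32 lower of 34, median -4.32, the fibroblast list 24 higher and 0 lower of 26, median 4.72 and the secretory machinery 5 higher and 58 lower of 71, median -1.35 in that genotype. The Schwann list gave 5 higher and 25 lower of 36, median -2.17, and Sox10 stood at 64, 20.3 and 30.5 FPKM in its luminal and at most 0.0298 FPKM in its stromal libraries.

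A test of the difference between genotypes (limma interaction over 12052 genes) called 351 genes with a larger and 19 with a smaller value of stroma minus luminal in wild type (2.91% and 0.158%). Whether the wild type had toxin is not known, so genotype, toxin and loss of Lgr5-expressing cells cannot be told apart. Among matrix genes Col1a1 and Postn had a larger wild type value by 3.34 and 4.80 on the log2 scale, and Cxcl12 by 2.55. The difference of Lgr5 was larger in wild type by 3.59 (SE 0.44, adjusted p = 4.9e-04), that of Sox10 was less negative in wild type by 2.17 (SE 0.44, adjusted p = 0.013), and those of Mt1 and Mt2 differed by -0.97 and -1.04. The counts depended on scaling, with 188 larger and 29 smaller under TMM and 135 and 35 under quantile scaling.

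**Figure D5:**
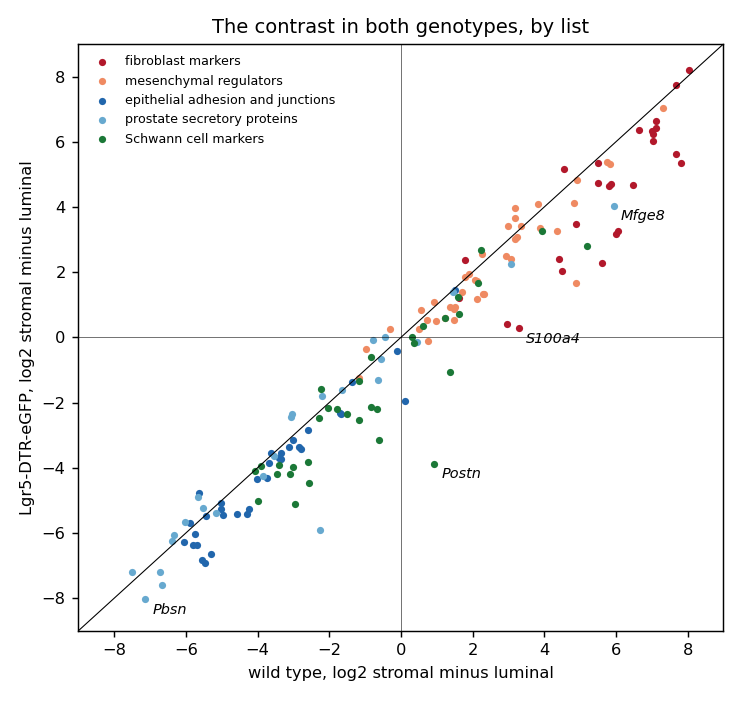
Log2 difference of stroma minus luminal in wild type (x axis) against that in toxin-treated Lgr5-DTR-eGFP animals (y axis), 1 point per gene of 5 lists (coloured by list), with the line of equal values. The libraries of the 2 axes are separate, and Pbsn lies near -7.14 on the wild type axis.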

How the data were processed

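Per the labels' protocols, RNA of flow-sorted cells was turned into cDNA by a template-switching kit for small inputs, tagmented into libraries and read on a HiSeq sequencer. The authors deposited FPKM per RefSeq transcript, for which the submitters' processing notes name TopHat2, Cufflinks and mm10 without versions. Beside FPKM, the deposited tables give a read coverage and a status for each transcript, per the file headers. Coverage times transcript length gave the depth in gigabases, which is no count, so intervals for counting error were not made.

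A gene's FPKM is the sum over its transcripts (24343 gene symbols). Genes at 1 FPKM or more in at least 3 of the 6 libraries entered, and genes with a failed or capped status in any of the 6 were left out. Log2(FPKM + 1) values were fitted with limma 3.58.1 (R 4.3.3), using its trended and robust empirical Bayes step and no term but the group, and a gene was called when its Benjamini-Hochberg adjusted p over all tested genes was below 0.05. Log2 differences had a median SE of 0.238. The luminal minus basal comparison and the Lgr5-DTR-eGFP comparison were fitted in the same way, and the genotype difference as an interaction over 13 libraries. Since reads shared by overlapping transcripts are divided by estimation, an exact 0 may be a failed estimate and is given as listed at 0. Exon overlap was taken at 10% or more of a gene's exonic bases in the GENCODE annotation of GRCm38. Tables were made with Python 3.11.15, numpy 2.4.6 and pandas 2.3.3, and the fits were tested on simulated data, in which false calls ran somewhat above the threshold set and many small differences were missed, more so for the genotype difference. Of the 6 libraries, luminal replicates 1 and 3 carried low-data status entries that the other 4 lacked, and no source used here gives the reason.

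Members and the 35 gene lists were chosen with earlier results of these data known. Genes named were the 15 largest differences per direction among called, non-overlapping genes averaging 5 FPKM or more in a group, the 10 highest means per group, up to 4 members per list and direction by difference and up to 4 by level, Lgr5, the sorting antigens, and the 5 smallest p per direction for the genotype difference. Predicted genes, clones and pseudogenes were skipped among the 15. Some genes that the rule takes in are not reported here. Named outside this rule, after their values had been seen, were 9530053A07Rik, Adgre1, Alas2, Bhlha15, C1s1, Cd34, Cd44, Cdh1, Cdh19, Cdh5, Cldn12, Col1a1, Col1a2, Cs, Csf1r, Ctnnd1, Dsc2, Dsp, Egfr, Esrp1, Esrp2, Fabp7, Fgf10, Fgf7, Fgfr2, Fgfr3, Gata3, Gfap, Gfra3, Grhl2, Hgf, Idh2, Kdr, Krt4, Msmb, Mt3, Myh11, Nrg1, Numb, Ocln, Pi16, Pkm, Ppl, Psca, Rbm47, Slc4a1, Slk, Snai1, Snai2, Sox10, Spint1, St14, Tgm4, Tnc, Tpm1, Zeb1 and Zeb2. The alternatives tried were other pseudocounts, filters, scalings, gene values, spreads, terms for replicate number or low-data status, and leaving out each library.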

Additional observations from a re-analysis of the deposited data

Results flagged for a closer look

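The value of stroma minus luminal was called larger in wild type than in toxin-treated Lgr5-DTR-eGFP animals for 351 genes and smaller for 19. The 10 genes described here are the 5 with the smallest p in each direction. All values here are wild type minus Lgr5-DTR-eGFP differences on the log2(FPKM + 1) scale, from the limma interaction with Benjamini-Hochberg adjustment. Genotype, toxin and loss of Lgr5-expressing cells cannot be told apart in them.

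The difference was larger in wild type for Ccdc80, a matrix-associated gene (3.88, SE 0.35, adjusted p = 2.5e-05). Ccdc80 stood at 101, 95.6 and 116 FPKM in the stromal and 0.996, 0.842 and 0.643 FPKM in the luminal libraries, and between 22.1 and 33.6 FPKM in the 4 stromal and 3.72 and 8.86 FPKM in the 3 luminal libraries of the other genotype. The stromal level was thus lower and the luminal level higher in that genotype. The complement gene C7 (3.33, SE 0.33, adjusted p = 7.5e-05), the sphingosine phosphate receptor gene S1pr3 (3.79, SE 0.38, adjusted p = 7.9e-05) and the water channel gene Aqp1 (4.69, SE 0.49, adjusted p = 1.3e-04) also had a larger wild type difference. So did Fgf5 (3.19, SE 0.36, adjusted p = 2.6e-04), an FGF ligand gene that stood at 15.9, 6.28 and 9.5 FPKM in the Lgr5-DTR-eGFP luminal libraries and at most 0.299 FPKM in the wild type ones.

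The difference was smaller in wild type for Toporsos (-5.95, SE 0.27, adjusted p = 6.9e-09), Emc9 (-3.88, SE 0.22, adjusted p = 9.4e-08), Cmc1 (-3.31, SE 0.22, adjusted p = 6.0e-07) and Tm7sf2 (-2.99, SE 0.22, adjusted p = 1.5e-06). Toporsos stood at 48.8, 79.1 and 57.9 FPKM in the wild type luminal libraries and Emc9 at 14.1, 13.3 and 13.8 FPKM. All 4 genes were listed at 0 in every stromal library of both genotypes and every Lgr5-DTR-eGFP luminal library. A value present in 1 group and exactly 0 elsewhere can also arise in the division of reads between overlapping genes, which was not tested. Ptger3, a prostaglandin receptor gene, had a smaller wild type difference as well (-2.27, SE 0.38, adjusted p = 0.0042).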

How the results depend on the processing

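No called difference among the genes picked for naming reversed, and 10 of these genes changed sign under an alternative, none of them called in the fit described, as did 2 list medians, that of the seminal vesicle list (1 tested gene) to 0.02 without luminal replicate 2 and that of the heat shock list to -0.0058 without stromal replicate 1. In wild type the genes higher and lower in stroma kept within 1.5 times their counts under all alternatives except a 5 FPKM filter, which tested fewer genes and left 2018 higher. Leaving out each of the 6 libraries gave 2827 to 3092 higher and 3822 to 4256 lower genes, the Lgr5-DTR-eGFP comparison 2027 to 2449 and 4248 to 4924, and luminal minus basal 3882 to 4157 and 2656 to 3026. The low-data status term gave 2577 and 3429. Sample numbers from the descriptions did not pair the libraries (correlations of deviations 0.0361, -0.0942 and 0.0673). The titles carry other numbers, which stromal replicate 2 and luminal replicate 1 share (correlation 0.146), the highest of the 9 pairs. A block on the description numbers, the replicate block, gave 3040 higher and 4207 lower genes.

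The genotype difference was less stable. Against 351 larger and 19 smaller in wild type, TMM scaling gave 188 and 29, quantile scaling 135 and 35 (94.9% of calls larger became 79.4%), a pseudocount of 0.1 gave 11 smaller, and the replicate block 469 and 47. Leaving out a library gave 189 to 399 larger and 8 to 39 smaller, with 189 without Lgr5-DTR-eGFP luminal replicate 1 and, for wild type, 206 and 231 without luminal replicates 2 and 3 and 204 and 224 without stromal replicates 3 and 1. The smaller count was 8 without wild type luminal replicate 2, 10 without Lgr5-DTR-eGFP luminal replicate 1, 11 without its stromal replicate 1 or wild type stromal replicate 3, 32 without Lgr5-DTR-eGFP luminal replicate 3 and 39 without its stromal replicate 4. The cause was not tested. Of the 295 genes picked for naming, 249 kept their side of the threshold throughout. Over all their alternatives 5735 values did, 92 lost and 30 gained a call. The 10 genotype genes kept theirs. List medians depend on the scale: 90 of 695 moved by more than the median standard error of the list's genes, 25 with a pseudocount of 5, 21 with 0.1 and 14 with the 5 FPKM filter, and 1 of 35 lists stayed within it throughout. The epithelial regulators' -2.39 became -4.18 with 0.1 and -1.25 with 5. The values used are not counts, so what depth limits at low FPKM was read only from the replicate spread.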

Other observations

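Genes at 5 FPKM or more in every library of 1 sort and listed at 0 in every library of the other were few. There were 28 such genes in stroma, of which 9 share exons with another gene, and 20 in luminal cells, of which 12 do. Among all tested genes 823 of 11178 (7.36%) share exons in this way, so part of these zeros may reflect how reads were divided, which was not tested. Ifi27l2a, an interferon-induced gene, stood at 128, 264 and 175 FPKM in the stromal libraries and was listed at 0 in all luminal ones.

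Genes of rarer cells were sparse in both sorts. Of 21 lymphocyte markers 2 were tested, Ltb (higher in stroma) and Ms4a1 (lower). Of 18 neutrophil and mast cell markers 1 was tested: S100a8 stood at 6.79, 6.8 and 1.39 FPKM in the stromal libraries and was listed at 0 in all luminal ones. Of 12 platelet markers Gp1bb was higher in stroma (log2 difference 2.29) and Pf4 was not called (log2 difference -0.73). Of 11 melanocyte markers 1 was tested, Ednrb, an endothelin receptor gene higher in stroma (log2 difference 1.07), a call lost with a term for the libraries with low-data status entries, as was that of Ltb. Of 12 seminal vesicle secretory genes 1 was tested, Ceacam10, which was not called (log2 difference -0.35), and the list summed to 1.08 to 4.27 FPKM in luminal cells. Among 17 tested markers of proximal ducts and urethra, 2 were higher and 8 lower in stroma (median log2 difference -1.51), beside 27.8% and 38.4% of all tested genes. Psca and Krt4, known from proximal ducts, were not called (log2 differences -0.41 and -0.58).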
